A study of Homo sapiens with 5 samples.

Results

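The mitochondrial ribosome is built from rRNAs made in the organelle and from proteins that are encoded in the nucleus, translated in the cytosol and imported. MRPL genes encode proteins named for its large subunit and MRPS genes proteins named for its small subunit, and together the subunits translate the mitochondrial mRNAs for subunits of the respiratory chain and ATP synthase. Some of the proteins have counterparts in bacterial ribosomes, and others are found only in mitochondria.

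Values for 76 such genes, 48 MRPL and 28 MRPS, were present among the 8127 genes measured in HEK293T, a transformed line from human embryonic kidney that expresses the SV40 large T antigen. Genes were chosen by symbol, MRPL or MRPS followed by a number, and the probe of each gene was selected on its mean level over all 5 arrays, the brightest being kept. RefSeq lists 77 protein-coding genes with such symbols, and the remaining one, MRPL27, was not analysed here. The family itself was chosen by the pull-down minus mock values described below, in which MRPL36 and MRPL13 had stood among the most negative, so the differences and calls of its members are a description and no test of the family was made.

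The 5 Illumina BeadArrays fell into 2 groups. For 2 arrays, cells had received 200 pmol of a biotin-labelled miR-182-5p duplex, and the RNA recovered on streptavidin beads 24 h later was measured (the miR-182 pull-down). For 3 arrays, cells of the same line had been mock-transfected and were also harvested at 24 h. Their pull-down field reads "none", although the bead protocol is attached to all samples. Bead isolation and microRNA therefore cannot be told apart in this contrast, which asks which transcripts associate with miR-182. Separate cultures are not stated for the arrays of either group, and p-values and errors then measure only a spread that may be technical. Levels are the authors' deposited log2 values, differences are pull-down minus mock on that scale, and n is 2 pull-down and 3 mock arrays throughout. Across genes, the correlation was 0.977 to 0.986 within a group and 0.873 to 0.895 between groups. Of 8 genes listed as HEK293T markers 7 were measured. In the mock, vimentin (VIM) was at a mean of 13.52 and UCHL1 at 12.26, the neuronal filament genes NEFM at 8.87, INA at 8.74 and NEFL at 8.13, and the keratins KRT8 at 8.40 and KRT18 at 8.08, where the lower limit of the values is about 8. UCHL1 was called lower in the pull-down, where its mean was 10.01, and the other 6 were not called. The 4 listed blood and liver markers were not among the 8127 genes.

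The molecule used as bait is shown with its seed, bases 2 to 8, in capitals, since pairing through the seed is the usual way in which a microRNA binds a transcript. It is encoded at chr7:129770447-129770470 on the minus strand of GRCh38.p14 (RefSeq).
hsa-miR-182-5p: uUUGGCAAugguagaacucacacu
No transcript sequences of the members were used here, so seed matches in them were not counted.

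More members of the family were lower than higher in the pull-down. A gene was called where its p from limma, after Benjamini-Hochberg adjustment over all 8127 genes, was under 0.05. This called 15% of all genes lower and 20.2% higher. Of the 76 members, 32 were called lower, 11 higher and 33 were not called. All members with values are counted here, and no further filter on low values was applied to the deposited probes. Whether the authors had already filtered them is not stated. The median difference of the 76 members was -0.43, against 0.02 for all genes, and their differences were more widely spread, with an SD of 0.89 against 0.60. A negative difference means a lower level in the recovered RNA than in the mock RNA. It does not measure a change of the transcript's level in the cells.

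**Figure D1:**
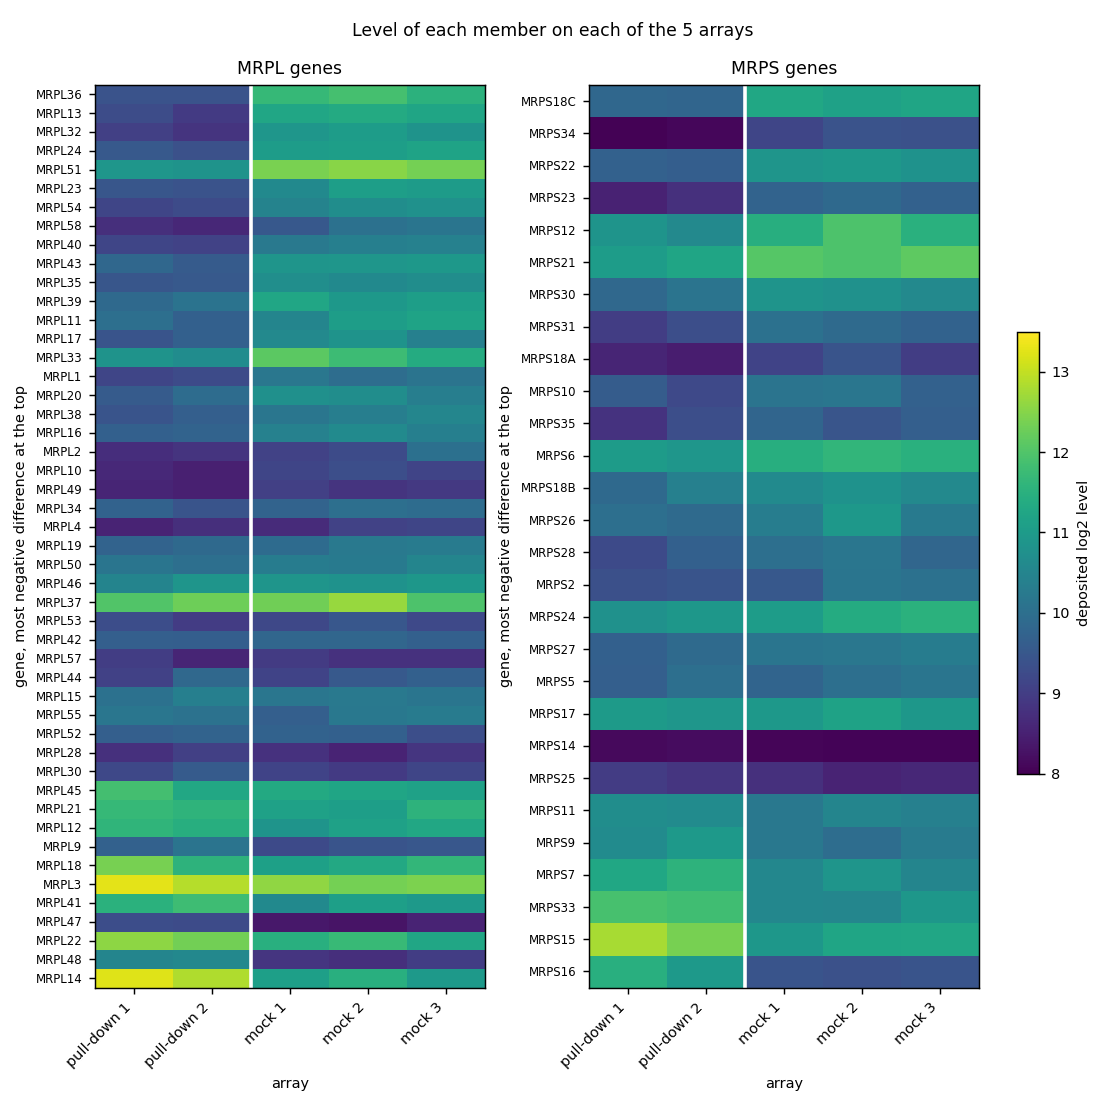
Deposited log2 level (colour scale) of each of the 48 MRPL and 28 MRPS genes (rows, ordered by difference) on the 2 pull-down and 3 mock arrays (columns, split by a white line). In the upper rows the pull-down arrays are darker than the mock arrays, and in the bottom rows they are brighter.

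MRPL and MRPS genes are set side by side in the plot of differences. Among the MRPL genes 21 were called lower and 6 higher (43.8% and 12.5%), and among the MRPS genes 11 and 5 (39.3% and 17.9%). Over all genes 15% were called lower and 20.2% higher, so the MRPS share of higher calls is close to that of all genes. Calls with a difference of at least 2-fold were made for 15 MRPL and 4 MRPS genes on the lower side, where all genes gave 5.12%. On the higher side they were made for 2 MRPL and 3 MRPS genes, against 5.28% of all genes. Such calls were more frequent among genes with a mean over the 5 arrays of at least 9. There, lower calls of this size were 15 of 42 MRPL and 3 of 24 MRPS genes, beside 400 of 3831 genes. Higher ones were 2 of 42 and 3 of 24, beside 358 of 3831. The median difference was -0.32 for MRPL and -0.53 for MRPS genes. The quartiles were -1.08 and 0.21 for MRPL and -0.74 and 0.15 for MRPS genes, so the lower quartile reached further down in the MRPL genes. With 1 array left out, 13 to 20 MRPL genes were lower and 3 to 6 higher, and 6 to 11 MRPS genes were lower and 3 to 4 higher. Lower calls were fewest, 13 and 6, without pull-down array 1, and higher calls fell to 3 of each kind without mock array 1. Higher MRPS calls were also 3 without either pull-down array, and higher MRPL calls were 4 without pull-down array 1.

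**Figure D2:**
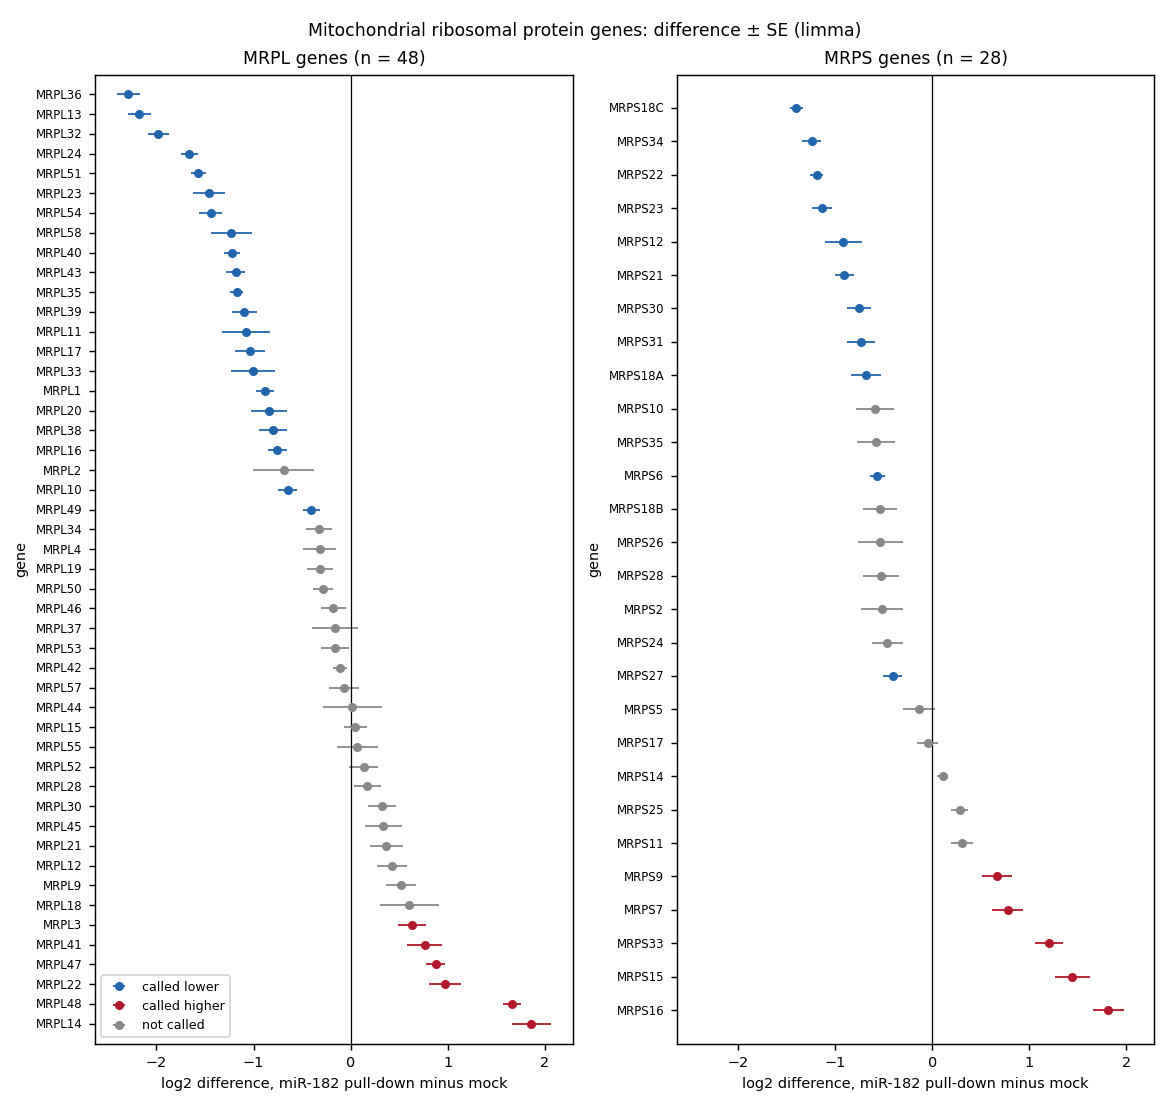
Log2 difference, pull-down minus mock, of each MRPL gene (left) and each MRPS gene (right), with the standard error from limma as bars. Blue points were called lower, red points higher and grey points not called; both panels run from below -1 to above 1.

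Arrays of the 2 groups did not overlap for most members, nor for most of all 8127 genes, of which 2836 overlapped. Both pull-down arrays lay below all 3 mock arrays for 26 MRPL and 18 MRPS genes, as they did for 30.1% of all genes. Both lay above for 10 MRPL and 8 MRPS genes, as for 35.0% of all genes, and 14 members overlapped. The median MRPL level was 9.67 and 9.69 on the pull-down arrays and 10.45, 10.63 and 10.46 on the mock arrays. The median MRPS level was 9.85 and 9.96 on the pull-down arrays and 10.21, 10.34 and 10.30 on the mock arrays. These medians of the pull-down arrays were below those of every mock array in both sets, while the medians over all genes were 8.92 and 8.92 in the pull-down and 8.91, 8.85 and 8.89 in the mock.

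Dim genes were seldom called lower, with 6.10% of the 4296 genes under a mean of 9, but 19.0% of them were called higher. Differences near the lower limit of the values are compressed. Of the 66 members with a mean over the 5 arrays of at least 9, 28 were called lower and 10 higher, where all 3831 genes with such a mean gave 24.9% lower and 21.5% higher. The median difference of these 66 was -0.52, against -0.06 for the 3831. Among the other 10 members 4 were lower and 1 higher. Across the 76 members the mock level correlated with the difference at r = -0.234 (Spearman's rho -0.227), close to -0.266 and -0.251 across all genes. The mock level enters the difference itself, genes share their arrays, and these correlations are descriptions only.

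The 3 most negative differences of the family belonged to large-subunit genes with bacterial counterparts. MRPL36, the counterpart of bacterial L36, was at 9.41 and 9.42 in the pull-down and at 11.69, 11.89 and 11.53 in the mock, a difference of -2.29 (SE 0.12). Its pull-down arrays were nearly equal and far below the lowest mock array, and its difference ranked 2 of 8127 from the lower end. MRPL13, the counterpart of bacterial L13, was at 9.27 and 8.94 against 11.25, 11.36 and 11.23, a difference of -2.18 (SE 0.12), rank 8. MRPL32, whose precursor must be cleaved by the m-AAA protease before it joins the ribosome, was at 9.03 and 8.83 against 10.88, 11.04 and 10.82. Its difference of -1.98 (SE 0.11) ranked 13. For all 3 genes the gap between the groups was larger than the range within either group.

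The next in order were MRPL24, the counterpart of a bacterial protein near the mouth of the exit tunnel, and MRPL51, which has no bacterial counterpart. MRPL24 was at 9.53 and 9.36 in the pull-down and 11.04, 11.09 and 11.19 in the mock (difference -1.66, SE 0.09), and its other probe gave -1.34. MRPL51 was at 10.88 and 10.82 against 12.39, 12.51 and 12.36 (difference -1.57, SE 0.07). Neither gene had overlapping arrays. MRPL58, a peptidyl-tRNA hydrolase that became a fixed part of the large subunit and is known from the rescue of stalled ribosomes, had a difference of -1.23 (SE 0.21). That call was lost without either pull-down array or without mock array 2.

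Not all large-subunit genes went down. MRPL14, the counterpart of bacterial L14 and the binding site of the assembly factor MALSU1, was at 13.23 and 12.85 in the pull-down and 11.11, 11.47 and 10.95 in the mock. Its difference was 1.86 (SE 0.20), or 3.64-fold, rank 32 of 8127 from the upper end. MRPL48, a protein of the central protuberance, was at 10.50 and 10.56 against 8.86, 8.75 and 8.99, a difference of 1.67 (SE 0.09). Both genes had every pull-down array above every mock array by at least 1 log2 unit. MRPL22 (0.98, SE 0.16), MRPL47 (0.88, SE 0.10) and MRPL41 (0.77, SE 0.18) followed, and MRPL3 (0.63, SE 0.14) was the remaining large-subunit gene called higher. MRPL22 lines the exit tunnel, MRPL47 is the counterpart of bacterial L29, and MRPL41 occurs only in mitochondria. The call of MRPL22 was lost without pull-down array 1 or mock array 1. The call of MRPL41 was lost without any one of 4 arrays (all but mock array 2), and that of MRPL3 likewise without any one of 4 (all but pull-down array 2).

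**Figure D3:**
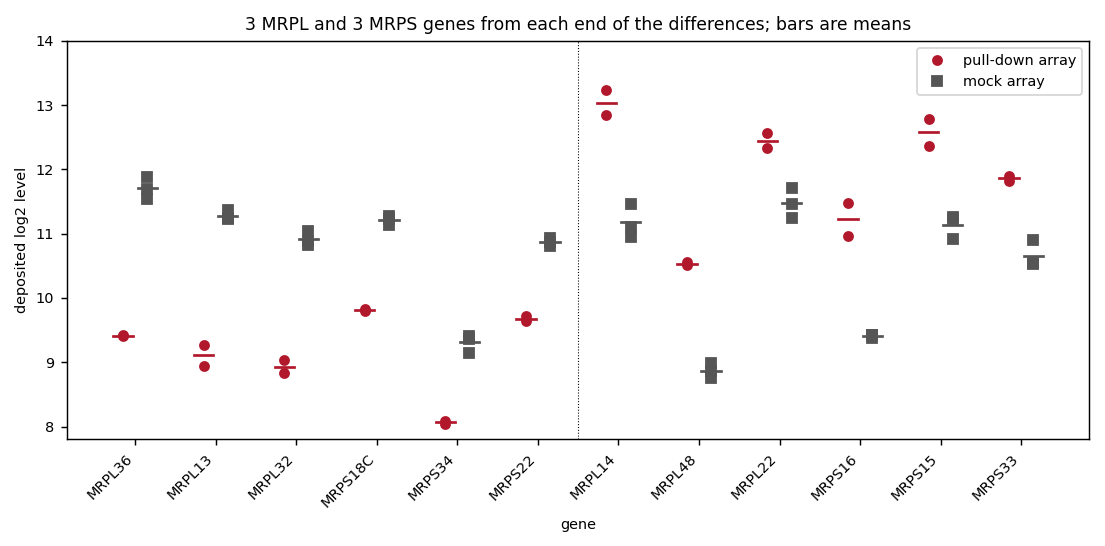
Deposited log2 level of 12 members on each array, with pull-down arrays as red circles, mock arrays as grey squares and group means as bars. The 6 genes left of the dotted line have both pull-down arrays below every mock array, as for MRPL36, and the 6 to its right have them above, as for MRPL14.

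In the small subunit the order opened with MRPS18C, the member of the MRPS18 trio that takes the place of bacterial S18. It was at 9.83 and 9.79 in the pull-down and 11.27, 11.14 and 11.23 in the mock, a difference of -1.40 (SE 0.07). MRPS34, found only in mitochondria, was at 8.03 and 8.09 against 9.15, 9.41 and 9.36. Both of its pull-down values lay within 0.1 of the lowest value on the array, which compresses its difference of -1.24 (SE 0.10). MRPS22, also found only in mitochondria, was at 9.72 and 9.64 against 10.88, 10.93 and 10.81 (difference -1.19, SE 0.07). MRPS23 had a difference of -1.14 (SE 0.10). MRPS12, the counterpart of the bacterial decoding-centre protein S12, was lower by its chosen probe (-0.92, SE 0.19), a call lost without either pull-down array or without mock array 1. Apart from MRPS12, the array values of these genes lay close together within each group.

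At the other end of the small subunit, MRPS16, the counterpart of bacterial S16, was at 11.47 and 10.97 in the pull-down and 9.43, 9.37 and 9.43 in the mock. The difference was 1.81 (SE 0.16), or 3.51-fold, although the pull-down arrays were 0.50 apart. MRPS15, the counterpart of the rRNA-binding S15, was at 12.78 and 12.36 against 10.91, 11.22 and 11.25 (difference 1.44, SE 0.18). MRPS33, found only in mitochondria, was at 11.90 and 11.82 against 10.54, 10.53 and 10.91 (difference 1.20, SE 0.14), and its other probe gave 1.07. In all 3 genes both pull-down arrays exceeded every mock array. MRPS7 (0.77, SE 0.16) and MRPS9 (0.67, SE 0.15) were also called higher, and each lost its call without any one of 4 arrays.

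Further members were called lower by smaller differences. In the large subunit they included MRPL33 (-1.01, SE 0.23), MRPL1 (-0.88, SE 0.09), MRPL20 (-0.84, SE 0.18), MRPL16 (-0.75, SE 0.10) and MRPL49 (-0.40, SE 0.09). MRPL1, the counterpart of the bacterial L1 protein, kept its call whichever array was left out, and the other 4 did not. In the small subunit MRPS21 (-0.91, SE 0.09) and MRPS6 (-0.57, SE 0.08), both with bacterial counterparts, kept their calls in the same way. MRPS31 (-0.73, SE 0.14) and MRPS27 (-0.41, SE 0.10), a protein with the repeats typical of organelle RNA-binding factors, lost theirs without some single array.

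The 33 members that were not called were spread from -0.69 in MRPL2 to 0.61 in MRPL18. In the small subunit 7 of the 12 uncalled genes had differences between -0.59 and -0.46 with every pull-down array below every mock array. These were MRPS10, MRPS35, MRPS18B, MRPS26, MRPS28, MRPS2 and MRPS24, with standard errors of 0.16 to 0.23. That order of the arrays was common, occurring in 30.1% of all 8127 genes, of which only 15% were called lower. MRPS28, a small-subunit protein, was at 9.23 and 9.69 in the pull-down and 10.01, 10.15 and 9.80 in the mock (difference -0.53, SE 0.18). The arrays of that gene did not overlap, but the gap between the groups was smaller than the gap between the pull-down arrays. MRPS17 (-0.05, SE 0.11) and MRPL15 (0.05, SE 0.12) had differences smaller than their standard errors. MRPS14 was near the lower limit in the mock on all 3 arrays, at 8.07, 8.05 and 8.05, and its value of 8.16 in the pull-down carries little information.

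By place in the ribosome, the stalk that recruits translation factors had 3 of 5 members called lower and none higher, with a median of -0.65, where 15% of all genes were lower and 20.2% higher. These were MRPL54 (-1.44, SE 0.12), MRPL11 (-1.07, SE 0.25) and MRPL10 (-0.65, SE 0.10). MRPL12, which forms the mobile part of the stalk, had a difference of 0.42 (SE 0.16) and was not called. Of 7 members listed near the exit tunnel 4 were lower, MRPL24, MRPL23 (-1.46, SE 0.16), MRPL39 (-1.09, SE 0.13) and MRPL17 (-1.04, SE 0.16), and MRPL22 was higher. MRPL45, which binds the inner membrane beside the tunnel exit, was not called (0.34, SE 0.19). In the central protuberance 2 of 7 were lower, MRPL40 (-1.22, SE 0.08) and MRPL38 (-0.80, SE 0.14), and MRPL48 was higher. The calls of MRPL11, MRPL17, MRPL10 and MRPL38 each ended when some single array was left out.

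Members with and without a bacterial counterpart were found on both sides. Of 29 MRPL genes with a bacterial counterpart 13 were lower and 4 higher (median -0.32), and of the 19 mitochondria-specific ones 8 and 2 (median -0.18). Among the MRPS genes these counts were 5 and 4 of 18 (median -0.49) with a counterpart and 6 and 1 of 10 (median -0.65) without. Over all genes 15% were lower and 20.2% higher, so the 4 of 18 called higher is close to the share of all genes. These 4 groups were not tested against each other. MRPS30 and MRPS18A are counted with the MRPS genes throughout but sit in the large subunit of the human ribosome. Both were called lower (-0.75, SE 0.12 and -0.68, SE 0.15). Each of these calls ended when some single array was left out.

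Probes not used for the choice could be read for 23 of the 76 genes, which had 26 further probes. Leaving out 2 probes at the lower limit on all arrays, 17 of 24 differed in the same direction as the chosen probe and 7 in the other. For 14 of the 23 genes every further probe had the same sign and lay within 0.5 of the chosen one. Among these, MRPL11 gave -1.29 beside -1.07, MRPL33 -0.97 beside -1.01, and MRPL20 -0.91 beside -0.84.

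For the other 9 genes the probes disagreed. MRPL35 was called lower at its brightest probe (-1.17, SE 0.07), but its further probes gave 0.09 and 0.24. MRPL42 gave -0.11 at the chosen probe and 0.67 at the other, and MRPS11 gave 0.31 and -0.64, so neither gene has a settled direction. MRPL55 gave 0.07 and -0.19, and MRPL4 gave -0.32 and 0.00. MRPS12 gave -0.92, -0.25 and 0.06, MRPL43 gave -1.19, -0.70 and -0.03, MRPL3 gave 0.63 and 0.07, and MRPL57 gave -0.07 and 0.01, where the last probe of each was on or near the lower limit. MRPL36, MRPL13, MRPL32, MRPL14, MRPL48, MRPS16 and MRPS15 had a single probe each. Many mitochondrial ribosomal protein genes have processed pseudogenes, whose transcripts such a probe may also detect.

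Spread between replicate arrays differed between members. The gap between the pull-down arrays had a median of 0.19 over the 76 members and exceeded 0.5 in 6 of them. Over all genes the median was 0.13, and 682 of 8127 exceeded 0.5. MRPL18, the counterpart of bacterial L18, had the widest gap, 12.38 and 11.55, and its difference of 0.61 (SE 0.30) was not called. MRPL44, an RNase III-like protein of the large subunit, was at 9.06 and 9.85 in the pull-down and 9.10, 9.53 and 9.69 in the mock, with a difference of 0.02 (SE 0.30) and overlapping groups. The range over the mock arrays had a median of 0.30, against 0.24 over all genes. Among the members it was widest in MRPL2 (9.08, 9.26 and 10.04), which was not called despite a difference of -0.69 (SE 0.31).

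Other genes of mitochondrial translation were taken from lists written from general knowledge. Of 7 further ribosomal or ribosome-bound proteins 5 had values, and 3 were lower with none higher, beside 15% and 20.2% of all genes. These 3 were CHCHD1, a small-subunit protein (-0.84, SE 0.09), OXA1L, the insertase that receives nascent chains (-0.50, SE 0.11), and DAP3, the GTP-binding protein of the small subunit (-0.38, SE 0.06). The call of CHCHD1 held with each array left out in turn, whereas OXA1L lost its call without any array but pull-down array 2, and DAP3 without either pull-down array. Among 13 measured translation and mRNA factors 6 were lower and none higher, with a median of -0.38, beside the same shares of all genes. SLIRP, the partner of LRPPRC in stabilising mitochondrial mRNAs, had a difference of -1.06 (SE 0.15), and the initiation factor MTIF3 one of -0.72 (SE 0.19), which was no longer called without any one of 4 arrays (all but mock array 2).

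Of 24 measured assembly and rRNA modification factors 6 were lower and 3 higher (median -0.03), beside 15% and 20.2% of all genes. C1QBP, a matrix protein linked to mitoribosome formation, was at -0.98 (SE 0.11), and the rRNA methyltransferase MRM3 was at -0.84 (SE 0.21). MTERF3 (1.02, SE 0.12) and the rRNA methyltransferase NSUN4 (0.69, SE 0.12) went the other way. MALSU1, which binds MRPL14, was lower (-0.51, SE 0.08), opposite in sign to MRPL14 itself. MRM3, NSUN4 and MALSU1 lost their calls without either pull-down array, MRM3 also without mock array 1 and NSUN4 without mock array 2. In mitochondrial transcription and RNA processing 2 of 11 were lower, TFB2M (-1.03, SE 0.08) and TRMT10C (-0.92, SE 0.18), and none higher, and 2 of 11 is close to the 15% of all genes. The pull-down level of TFB2M, 8.09, was near the lower limit, and TRMT10C was not called without either pull-down array or mock array 2. The transcription factor TFAM was not called (-0.12, SE 0.09).

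Genes with RPL or RPS symbols, most of which encode proteins of the cytosolic ribosome, also had more lower than higher calls. Taken by symbol, they include the pseudogene RPL13P5 (-1.18) and the paralogues RPL26L1, RPL39L, RPS27L and RPL7L1, of which all but RPL7L1 were called lower. Of 45 RPL genes 27 were lower and 6 higher (median -0.74), and of 26 RPS genes 17 and 4 (median -0.67). Most are bright, and among all genes with a mean of at least 9 the shares were 24.9% lower and 21.5% higher, so their higher calls were fewer than that share. RPL7A, the lowest of all genes, was at -3.44 (SE 0.09), and RPS2 was the lowest RPS gene at -1.80 (SE 0.26). RPL7 (-2.13, SE 0.17) and RPS15A (-1.73, SE 0.17) came next in each set. RPL7L1 (0.80, SE 0.12) and RPL8 (0.68, SE 0.12) led the higher RPL genes, and RPL8 was not called with 1 pull-down array removed, under quantile normalization, with the replicate block or with the mean of all probes, which gave 0.39. The highest cytosolic differences were those of RPS26 (1.51, SE 0.23; not called without pull-down array 2) and RPS3 (1.19, SE 0.13). The difference between the families was not tested.

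**Figure D4:**
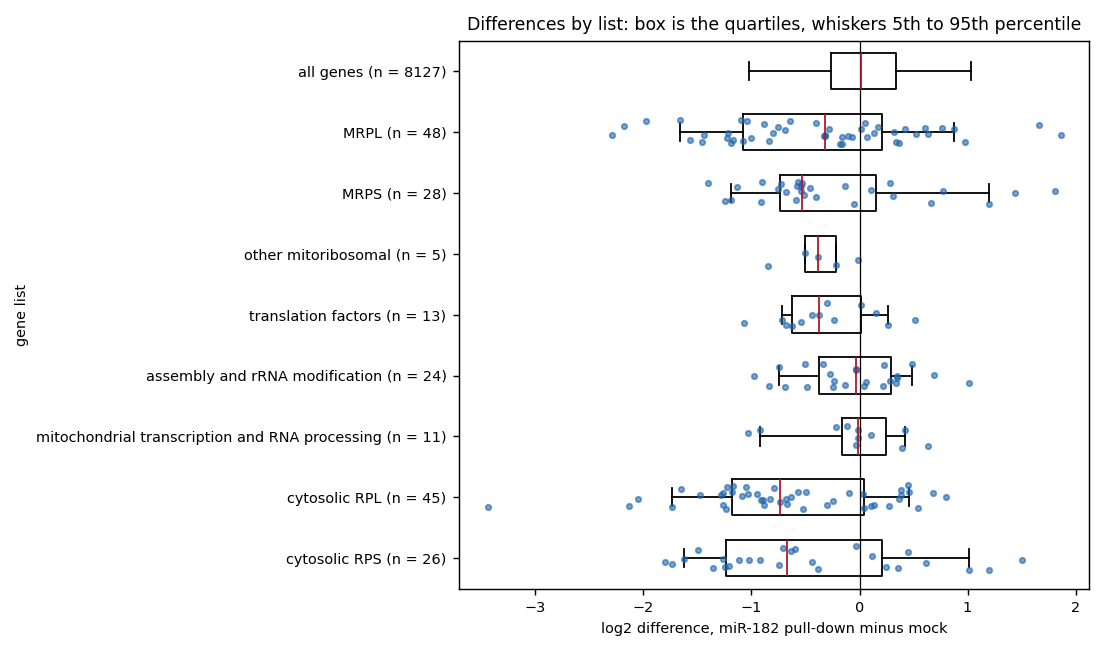
Log2 difference, pull-down minus mock, for all 8127 genes and for each list. Boxes are quartiles, whiskers run from the 5th to the 95th percentile, and a red line marks the median. Blue points are the genes of each list and are not drawn for all genes. The medians of MRPL (-0.32), MRPS (-0.53) and both cytosolic sets lie below that of all genes (0.02), and each of these 4 sets has genes on both sides of 0.

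Promoters were read for sequence features that the choice by symbol did not use. RefSeq promoter sequences of 300 bases, from 250 before to 50 after the gene start (GRCh38.p14), were matched for 68 of the 76 members. The letters CCGGAAG, the core bound by GABP, a factor known for driving nuclear genes of mitochondria, were present on either strand in 28 of 68 (41.2%), against 21.2% of 6829 promoters of genes on the arrays and 10.3% of all 35116 promoters. AAGATGGCG, a core of YY1 sites, was present in 13 (19.1%), against 4.64% and 1.75%. The NRF1 core, read as GCGC followed by any 2 bases and GCGC, was present in 9 (13.2%), against 17.9% and 8.32%. No member had matches of different motifs that overlapped. The GABP letters were present in 17 of 28 lower, 5 of 11 higher and 6 of 29 uncalled members with a promoter. The YY1 letters were present in 5, 1 and 7 of these, and the NRF1 letters in 2, 3 and 4. A match of letters is no evidence of binding, and these shares were not tested.

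The stretches below show such matches in 3 members that were lower (MRPL36, MRPL51 and MRPS34) and 3 that were higher (MRPL14, MRPL48 and MRPS16), to show that the same letters occur on both sides. Capitals mark matches to the 3 motifs or their reverse complements, and each stretch reads 5′ to 3′ on the strand of its gene.
MRPL36: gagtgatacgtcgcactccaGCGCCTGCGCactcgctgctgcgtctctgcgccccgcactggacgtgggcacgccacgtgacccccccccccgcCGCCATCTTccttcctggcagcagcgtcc
MRPL51: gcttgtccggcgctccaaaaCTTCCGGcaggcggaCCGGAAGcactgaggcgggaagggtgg
MRPS34: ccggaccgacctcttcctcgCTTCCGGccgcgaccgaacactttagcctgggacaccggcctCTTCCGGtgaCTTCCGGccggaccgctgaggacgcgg
MRPL14: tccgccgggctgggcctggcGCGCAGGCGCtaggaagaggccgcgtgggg
MRPL48: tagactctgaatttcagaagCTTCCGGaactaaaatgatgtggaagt
MRPS16: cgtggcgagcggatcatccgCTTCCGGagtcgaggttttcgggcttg
These lie on GRCh38.p14 at chr5:1799845-1799967 (minus strand), chr12:6493340-6493401 (minus), chr16:1773127-1773225 (minus), chr6:44127402-44127451 (minus), chr11:73787791-73787837 (plus) and chr10:73252613-73252659 (minus). MRPL36 holds an NRF1 core and a YY1 core, MRPL14 an NRF1 core, and the other 4 the GABP core, which occurs at 3 places in MRPS34. The genomic span of a gene, introns included, correlated with its difference at r = 0.107 across the 76 members and 0.211 across 8126 genes, again as a description.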

How the data were processed

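RNA from 5 HEK293T samples had been labelled and hybridised to Illumina arrays, per the labels' protocols. The values used were log2 values deposited by the authors for 11184 probes. Base 2 was inferred from their range, up to 15.2. Lumi 2.2.1 is listed with no role per the submitters' processing notes; how the background was corrected, and the transformation, normalization and filter, is not given in the sources used here. A second table (39408 rows, 10 value columns) was not used, because its column names match no sample label.

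Probes were named through the platform annotation with current symbols by Entrez identifier (10040 of 11184 had 1 symbol). For each of 8127 genes the probe with the highest mean was kept. Group differences were fitted with limma 3.58.1 in R 4.3.3 (lmFit, eBayes, 3 residual and 1.61 prior degrees of freedom). Benjamini-Hochberg adjustment ran over all genes. The number of arrays limits the precision.

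Members and lists were chosen with earlier results of these data known. Named genes are MRPL36, MRPL13, the 5 most negative and 5 most positive differences of each subunit, members with disagreeing probes, and up to 2 called genes per direction of each wider list; other genes were named after their values were seen. The split at 9 used the mean over all arrays instead of the planned mock mean, and the planned protein length check was not run. Alternatives were 3 other scalings, a filter on dim genes, the mean of all probes, an intensity trend, a replicate block, and each array left out.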

Additional observations from a re-analysis of the deposited data

How the results depend on the processing

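Under 3 other scalings, the filter at a mean of 9, the mean of all probes and an intensity trend, the counts of lower and higher MRPL and MRPS genes stayed within 1.5 times those reported, except that 10 MRPL genes were higher with the mean of all probes, against 6. With that mean the difference of MRPL42 changed sign, to 0.28, and the gene was called higher, while MRPS11 (0.31 to -0.17) and MRPL55 (0.07 to -0.06) changed sign without a call either way. MRPL35 moved from -1.17 to -0.28 and MRPS12 from -0.92 to -0.37. The medians of both sets stayed below 0 under every alternative run. With 1 array left out, 13 to 20 MRPL genes were lower and 3 to 6 higher, and 6 to 11 MRPS genes were lower and 3 to 4 higher. The MRPL median then lay between -0.38 and -0.27 and the MRPS median between -0.57 and -0.36. Of 21 MRPL genes called lower, 12 kept the call whichever array was left out, as did 3 of 6 called higher, 6 of 11 MRPS genes called lower and 3 of 5 called higher. Over all genes, 1215 lower calls became 638 to 1205 and 1640 higher calls 958 to 1379. Fewer arrays widen the error of every gene. With the replicate number as a block, 19 MRPL genes were lower and 8 higher, 10 MRPS genes lower and 4 higher, and the medians were -0.28 and -0.57. Numbers 1 and 2 occur in both groups, but the labels do not say that they mark a shared culture or day, and the gap between the numbered arrays correlated across genes with only r = 0.097 between the groups. Differences near the lower limit of the values, such as that of MRPS34, are understated.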
